A study of Dunaliella salina with 9 samples.

Results

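A set of 185 transcript clusters was raised in blue light over both red and white light in cultured Dunaliella salina, out of 115975 clusters counted and 10739 that averaged 10 CPM or more over the 9 libraries (CPM is a count divided by the total of its library and multiplied by 1000000). Dunaliella salina is a salt-tolerant unicellular green alga grown for its β-carotene. Cells in mid-exponential growth were moved into fresh medium under blue light of 450 nm (3 samples), red light of 660 nm (3 samples) or cool white light (3 samples). The photon flux was 50 µmol per square metre and second in each light. Per the labels' protocols, the cultures were kept before this at 22 °C under white fluorescent lamps with 14 h of light and 10 h of dark. The strain, the time spent under each light and whether each sample was a culture of its own are not given in the sources used here. The samples are called biological by the submitters; unless they were separate cultures, the p-values reflect sample-to-sample spread that may be technical. A cluster was a member where its lowest CPM in the 3 blue libraries was at least 1.5 times its highest CPM in the 6 red and white libraries. Blue levels above red and white levels are thus how the members were chosen, and the blue values below are a description and carry no test.

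Green algae sense blue light with flavin-binding photoreceptors, the cryptochromes and phototropin, and blue light is also absorbed by both chlorophylls and carotenoids, whereas red light is absorbed by chlorophylls and hardly by carotenoids. In the related green alga Chlamydomonas reinhardtii, phototropin is known to relay blue light to genes of chlorophyll and carotenoid synthesis and to a photoprotective light-harvesting protein. The cluster identifiers of Dunaliella salina are not paired with gene names in the files, and none of them matched the 16683 genes of the reference table, so the members cannot be assigned to these pathways here. Here 4 clusters are named by identifier, and the others are described by their rank.

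The label of the set, raised only by blue light, was checked in red against white, where 54 members rose, 10 fell and 121 did not pass (quasi-likelihood test of edgeR, with p adjusted by Benjamini-Hochberg over all tested clusters and 0.05 as the threshold). The 64 called members were 34.6% of the set, near the 33.9% of all tested clusters called and below the 47.6% of the tested clusters with a mean of 10 CPM or more, so that share is not read as a result about the members. The 54 differ between the other lights too, and the members are called by their rule, clusters raised in blue over red and white.

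Library totals ran from 16279167 (white 3) to 24526786 counts (red 1). The white libraries differed more from each other than those of the other lights. The chi-square of their counts, divided by its degrees of freedom, would be close to 1 for sampling noise alone. It was 149 between white 1 and white 2 and 61.5 and 40.0 for the other white pairs, against 12.8 to 23.4 between blue libraries and 8.15 to 13.8 between red libraries. No pair was alike within sampling noise. Whether the samples of the 3 lights share a date and batch is not given, so a batch and the light cannot be told apart.

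Together the members took 5.31%, 4.95% and 5.23% of all counts in blue 1 to 3, against 2.44%, 2.38% and 2.38% in red 1 to 3 and 2.00%, 1.23% and 1.56% in white 1 to 3. The mean share was 5.16% ± 0.19 in blue, 2.40% ± 0.038 in red and 1.60% ± 0.39 in white (SD, n = 3 each). These shares belong to clusters picked for being high in blue. In bulk RNA of a culture, a change of transcript per cell and a change in the make-up of the culture cannot be told apart.

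Most members differed by a modest factor and a few by a large one. The blue mean was a median of 2.11 times the red mean over the 185 members (quartiles 1.88 and 2.74), where all 10739 clusters of that abundance class had a median of 1.08. Against white, the median was 3.80 with the 7 members that had no counts in white at their bound, and 3.65 without them, beside 1.24 for the class. The blue mean was at least 2 times the higher of the red and white means in 104 members and at least 3 times in 35. By the ratio that defines the set, lowest blue over highest red or white CPM, 40 members reached 2, 14 reached 3, 6 reached 5 and 2 reached 10. The highest of the 6 red and white values came from a red library in 140 members and from a white library in 45, of which 32 were white 1.

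The cut at 1.5 runs through a continuous range. The 10 members just inside it had ratios of 1.501 to 1.511, blue over red means of 1.57 to 2.48 and blue over white means of 1.78 to 4.16. The 10 clusters just outside had ratios of 1.489 to 1.499, blue over red means of 1.57 to 7.79 and blue over white means of 1.87 to 3.67. The ranges of both sides overlapped in each measure but the ratio itself. The set also rests on the scaling, since 93 of the 185 met the rule with TMM-scaled CPM and 89 with size factors. Of these 93, 38 were among the 54 members that rose in red over white and 3 among the 10 that fell. The other 52 were among the 121 that did not pass. The TMM factors were 1.09 to 1.16 in blue, 0.999 to 1.08 in red and 0.788 to 0.936 in white. Library totals alone thus place blue levels higher against white than TMM does and, to a lesser degree, higher against red. The median blue minus red log2 difference of the class was 0.11 with library totals and 0.0061 with TMM.

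The largest ratio belonged to Cluster-15686.55156, with an effective length of 1293 bases. It had 44.6, 39.5 and 46.3 CPM in blue 1 to 3, against 1.71, 1.53 and 1.33 CPM in red 1 to 3 and 1.01, 0.623 and 1.47 CPM in white 1 to 3. All 6 red and white libraries were close to 1 CPM, and the lowest blue library was 23.1 times the highest of them. Its means were 43.5 ± 3.5 CPM in blue, 1.52 ± 0.19 CPM in red and 1.04 ± 0.43 CPM in white (SD, n = 3 each), which makes blue 28.5 times red and 42.0 times white. Its red minus white log2 difference of 0.29 (approximate SE 0.29) did not pass (edgeR adjusted p = 0.455, and 0.085 to 0.93 over 18 alternatives).

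The members ranked 2 and 3 by ratio were also low in every red and white library. The one ranked 2 (1823 bases) had 67.6, 61.9 and 55.8 CPM in blue, against 4.02, 2.74 and 4.08 CPM in red and 5.47, 0.336 and 2.28 CPM in white. The one ranked 3 (1932 bases) had 64.0, 66.2 and 56.1 CPM in blue, against 4.45, 6.37 and 5.79 CPM in red and 6.06, 1.23 and 4.54 CPM in white. In both, white 2 was the lowest library and red and white overlapped.

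The members ranked 4 and 6 were low in white and lower still in red. Rank 4 (1513 bases) had 45.4, 47.0 and 53.6 CPM in blue, against 3.10, 2.04 and 2.67 CPM in red and 7.86, 6.03 and 5.47 CPM in white. Rank 6 (2696 bases) had 43.4, 44.8 and 54.8 CPM in blue, against 3.75, 4.30 and 2.85 CPM in red and 8.52, 8.20 and 6.70 CPM in white. Every red library lay below every white library in both, and their counts were whole numbers in all 9 libraries. The red minus white log2 differences were -1.59 (approximate SE 0.20, edgeR adjusted p = 0.0010) and -1.41 (approximate SE 0.19, edgeR adjusted p = 0.0015).

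Ranks 5, 7 and 8 each had an uneven group, although the ratio uses only the lowest blue library and the highest red or white one. Rank 5, 1 of the 2 longest members at 13394 bases, had 242, 167 and 128 CPM in blue and 25.1, 19.4 and 12.2 CPM in red, while white 1 had 1.40 CPM and white 2 and white 3 had none. Rank 7 (2564 bases) had 229, 208 and 249 CPM in blue, against 17.8, 18.9 and 20.2 CPM in red and 52.1, 0.352 and 15.9 CPM in white. Its white values ran on both sides of the red ones, with white 1 setting the ratio. Rank 8 (1163 bases) had 43.7, 46.1 and 88.4 CPM in blue, against 10.6, 11.3 and 8.18 CPM in red and none in white, with blue 3 well above the other blue libraries.

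Rank 9 (2242 bases) and rank 10 (1912 bases) were more abundant and steady in blue. Rank 9 had 1032, 969 and 971 CPM in blue, against 215, 214 and 223 CPM in red and 253, 37.5 and 110 CPM in white. Rank 10 had 174, 179 and 177 CPM in blue, against 43.3, 44.4 and 48.3 CPM in red and 18.3, 16.6 and 17.4 CPM in white. Rank 10 was tightly grouped in each light and formed 3 separate levels, and it rose in red over white by 1.08 on the log2 scale (approximate SE 0.099, edgeR adjusted p = 0.00023).

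**Figure D1:**
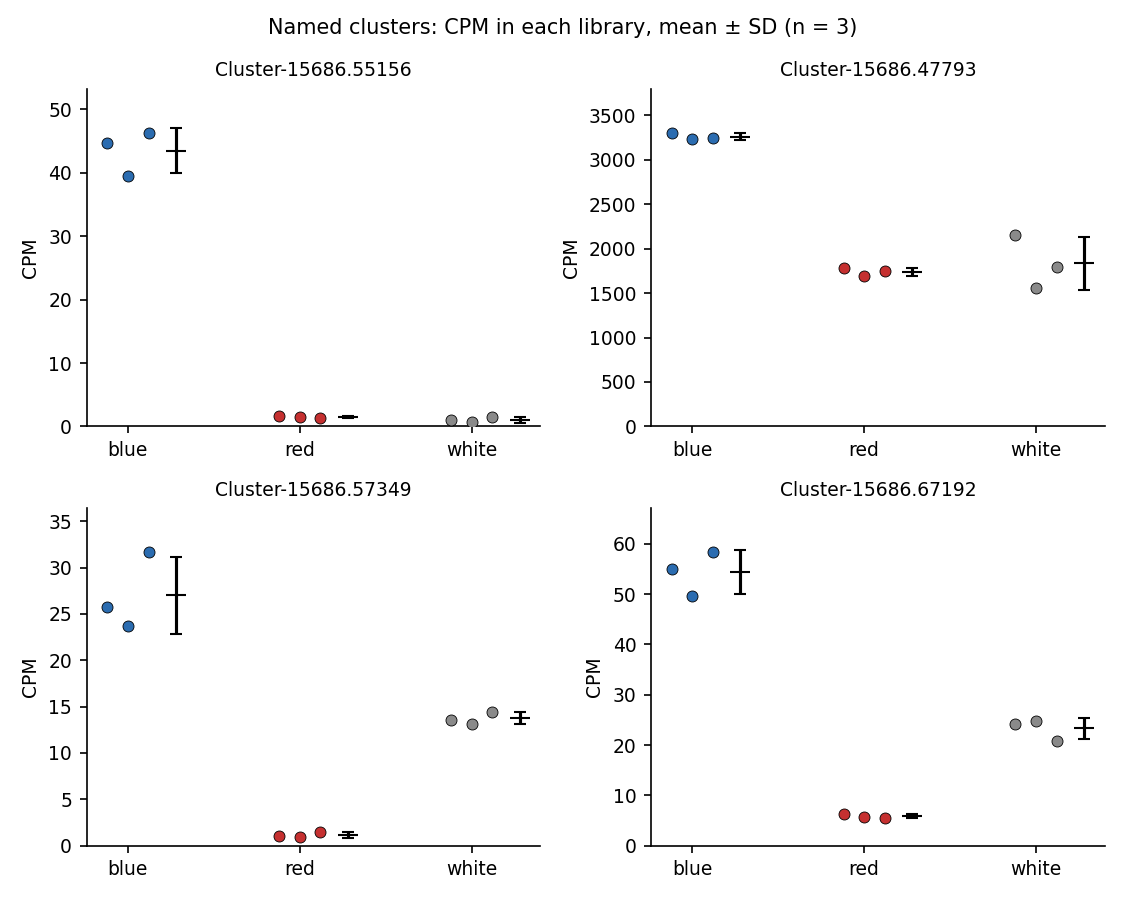
CPM of the 4 clusters named by identifier in each library of blue, red and white light, with the mean and SD (n = 3) beside the points. Cluster-15686.55156 lay near 1 CPM in every red and white library, whereas Cluster-15686.47793 had at least 1558 CPM in all 9 libraries.

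Levels between clusters were compared per length, with the FPKM values deposited by the authors. The members were more abundant than their class in blue, with a median of 50.8 FPKM against 16.7 FPKM for all 10739 clusters, which the choice for high blue values favours. Their medians were 22.1 FPKM in red and 11.2 FPKM in white, against 15.2 and 13.9 FPKM for the class in red and in white. Of the members, 75 had a blue mean of at least 100 CPM and 11 of at least 1000 CPM.

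The highest blue level per length belonged to Cluster-15686.47793 (1922 bases), whose ratio of 1.51 placed it just inside the cut. With TMM-scaled CPM this cluster did not meet the rule. It had 1720, 1674 and 1682 FPKM in blue 1 to 3, against 930, 883 and 909 FPKM in red 1 to 3 and 1118, 807 and 935 FPKM in white 1 to 3. Blue was 1.88 times red and 1.78 times white on mean CPM, and the red libraries fell within the span of the white ones. After TMM scaling its red level was 0.37 lower than white on the log2 scale (log2 difference -0.37, approximate SE 0.086, edgeR adjusted p = 0.014). That call was lost with library totals as the only scaling (log2 difference -0.08, edgeR adjusted p = 0.60) and without white 3, red 1 or red 2 (edgeR adjusted p = 0.055, 0.060 and 0.071).

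The member ranked 2 by blue FPKM (662 bases) had whole counts in all libraries and separate levels in the 3 lights. Its means were 1142 ± 70 FPKM in blue, 539 ± 17 FPKM in red and 154 ± 104 FPKM in white (SD, n = 3 each), and it rose in red over white by 1.54 on the log2 scale (approximate SE 0.40, edgeR adjusted p = 0.021). The one ranked 3 (2239 bases) was near absent in white. It had 2486, 2370 and 2583 CPM in blue and 788, 750 and 753 CPM in red, while white 1 and white 2 had none and white 3 had 0.211 CPM. Per length this was 1104 ± 49 FPKM in blue, 342 ± 10 FPKM in red and 0.030 ± 0.052 FPKM in white (SD, n = 3 each).

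Ranks 4 and 5 by blue FPKM differed in their white values. Rank 4 (2936 bases) had means of 1025 ± 19 FPKM in blue, 608 ± 16 FPKM in red and 370 ± 115 FPKM in white (SD, n = 3 each). Rank 5 (491 bases) had 1012 ± 53 FPKM in blue, 350 ± 1.0 FPKM in red and 150 ± 139 FPKM in white (SD, n = 3 each). The white spread of rank 5 was nearly as large as its white mean, with 147, 12.3 and 61.9 CPM in white 1 to 3. Neither passed in red against white (edgeR adjusted p = 0.067 for rank 4 and 0.25 for rank 5). Rank 6 was the shortest member, at 60 bases, where a level per length rests on an uncertain length: it had 48.0, 63.9 and 88.5 CPM in blue, against 18.8, 18.3 and 14.0 CPM in red and 9.89, 6.58 and 7.07 CPM in white.

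Ranks 7, 8 and 10 by blue FPKM did not pass in red against white. Rank 7 (1484 bases) had means of 852 ± 31 FPKM in blue, 379 ± 3.5 FPKM in red and 302 ± 43 FPKM in white (SD, n = 3 each). Rank 8 (1964 bases) had 762 ± 36 FPKM in blue, 321 ± 13 FPKM in red and 226 ± 6.3 FPKM in white. Rank 10 (2225 bases) had 690 ± 37 FPKM in blue, 316 ± 3.1 FPKM in red and 301 ± 11 FPKM in white. Their red minus white log2 differences after TMM scaling were 0.00, 0.20 and -0.24 (approximate SE 0.16, 0.095 and 0.115; edgeR adjusted p = 0.999, 0.14 and 0.14). In unscaled CPM every red library lay above every white library in all of these. Rank 9 (881 bases), with 758 ± 24 FPKM in blue, 436 ± 27 FPKM in red and 178 ± 32 FPKM in white (SD, n = 3 each), rose in red over white by 0.96 on the log2 scale (approximate SE 0.19, edgeR adjusted p = 0.0067).

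Red was then compared with white within the set, which the rule does not compare, although it sets an upper limit to both and the members were chosen from the same libraries. Clusters that fell in both red and blue against white cannot be members, so the rule itself lowers the share of falls. How far the rule alone sets the shares below was not tested, and they are a description. All 185 members passed the filter on low counts and were tested. The 54 that rose in red made up 29.2% of the members, where 17.0% of all 38376 tested clusters and 16.9% of the tested class rose. The 10 that fell made up 5.41%, where 16.9% of all tested clusters and 30.8% of the tested class fell. The median red minus white log2 difference of the members was 0.37, beside 0.31 over all tested clusters and -0.09 over the class. With library totals as the only scaling these medians were 0.67, 0.60 and 0.20, and 73 members rose and 7 fell. Leaving out white 1 gave 85 that rose and 22 that fell, and leaving out white 3 gave 34 and 9. In unscaled CPM, which places red higher against white than TMM does, the red mean was above the white mean in 166 members (89.7%, beside 58.8% of the class). In 104 every red library was above every white library (56.2%, beside 39.3% of the class), while in 9 every red library was below every white library (4.86%, beside 25.2%).

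**Figure D2:**
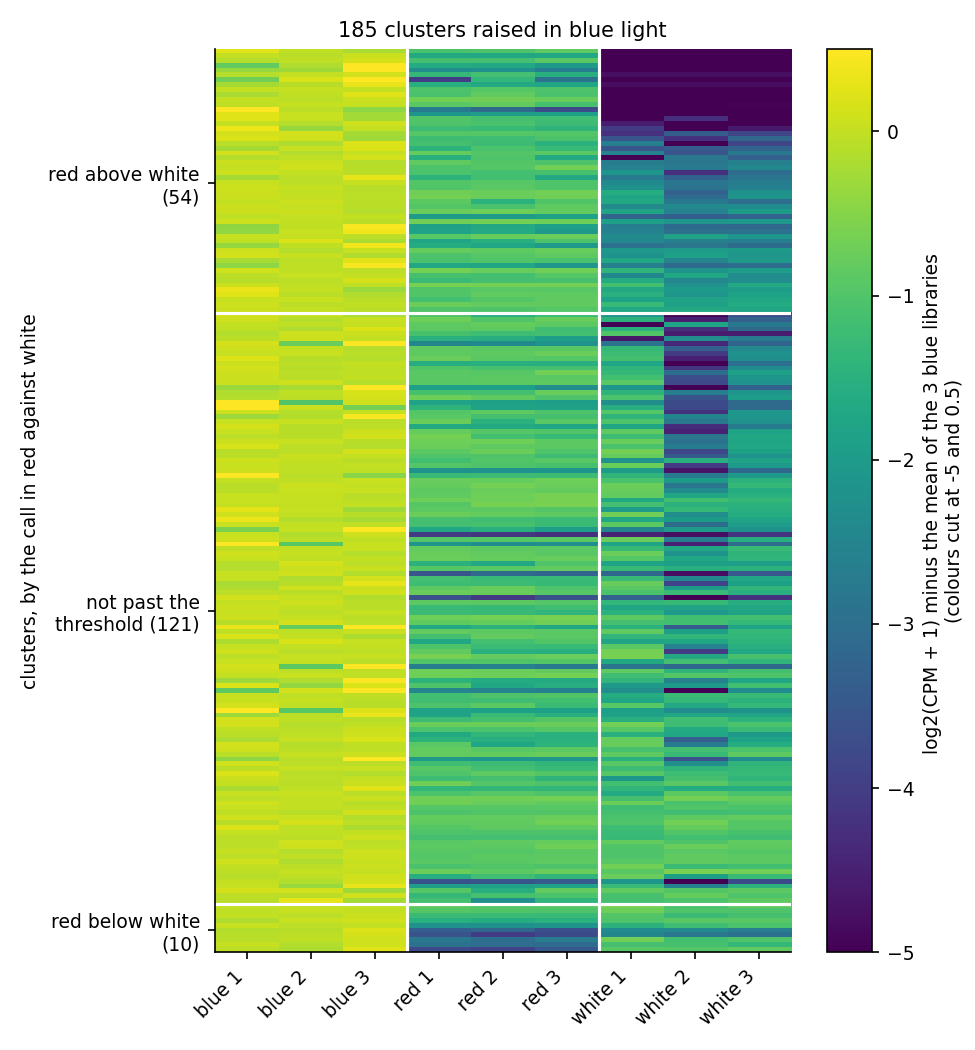
Log2(CPM + 1) of the 185 clusters in the 9 libraries (blue, red, then white), each relative to its own mean over the blue libraries, with rows grouped by the call in red against white (54 above, 121 not past the threshold, 10 below). White levels are far below red ones at the top of the upper group, and white 2 is darker than white 1 in many rows of the middle group.

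The 54 members that also rose in red formed a series of levels with blue highest, red between and white lowest. Every red library was above every white library in all 54, beside 39.3% of the class. The call by which the 54 were picked favours this. Red was at least 2 times white in mean CPM in 48 of them, those without counts in white included, and their median blue over red was 2.12, close to the 2.06 of the 121 members that did not pass. Of the 54, 13 had a white mean under 1 CPM and 7 of these had no counts in white at all. These 13 were all the members with so low a white mean, or 7.03% of the set, beside 3.22% of the class.

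The 7 members without counts in white had blue means of 26.3 to 175 CPM and red means of 7.94 to 87.7 CPM. A count of 0 allows up to 0.151 to 0.184 CPM in a single white library (3 counts, counting error only). Against 3 counts over the white group, they were at least 478-fold to 3173-fold higher in blue and at least 145-fold to 1590-fold higher in red. The most abundant of them (1193 bases) had 203, 170 and 152 CPM in blue and 82.0, 86.1 and 95.0 CPM in red. Another (991 bases) varied widely within red, with 32.9, 60.4 and 78.6 CPM in blue and 2.45, 20.3 and 6.32 CPM in red. None of the 7 had whole counts in all 9 libraries, so their reads were divided with other clusters. A change in level and a change in that division cannot be told apart.

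The 10 members that fell in red had the order blue, white, red on the TMM scale. In unscaled CPM their median blue over red was 5.97 and their median blue over white 2.08. After TMM scaling the median log2 differences were 2.43 for blue minus red and 0.64 for blue minus white. With TMM-scaled CPM 3 of the 10 still met the rule. In 8 of them every red library was below every white library in CPM (beside 25.2% of the class), which their call favours. Red and white overlapped in the other 2, with Cluster-15686.47793 among them. Counts were whole in 6 of the 10, against 23.8% of all members and 31.8% of the class. None of the 10 had white 1 at 3 times white 2 or more, and their median white coefficient of variation (CV) was 12.7%, against 28.2% over all members. The call by which they were picked itself favours a small white spread.

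Cluster-15686.57349 (1342 bases) fell most in red against white. It had 25.7, 23.6 and 31.6 CPM in blue 1 to 3, against 1.02, 0.905 and 1.47 CPM in red 1 to 3 and 13.5, 13.2 and 14.4 CPM in white 1 to 3. White libraries lay close together between the blue and red ones, and every red library was far below every white one. Red was lower than white by a log2 difference of -3.88 (approximate SE 0.27, edgeR adjusted p = 5.9e-05, and 1.5e-38 to 0.0016 over 18 alternatives). In unscaled CPM its blue over red mean was 23.8 and its blue over white mean 1.97. After TMM scaling its blue minus white log2 difference was 0.57 (approximate SE 0.24). It was not among the members called higher in blue against white, and passed there in 3 of 18 alternatives.

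Cluster-15686.67192 (2370 bases) was the second by that fall. It had 55.0, 49.7 and 58.3 CPM in blue 1 to 3, against 6.24, 5.77 and 5.57 CPM in red 1 to 3 and 24.2, 24.8 and 20.9 CPM in white 1 to 3. No library of one light reached those of another. Red was lower than white by a log2 difference of -2.29 (approximate SE 0.14, edgeR adjusted p = 3.5e-05, and 8.1e-32 to 0.0013 over 18 alternatives). Both clusters had whole counts in all 9 libraries, and neither met the rule with TMM-scaled CPM.

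The next by size of the fall (3561 bases) was more abundant, with 314, 324 and 354 CPM in blue, against 46.3, 40.1 and 50.6 CPM in red and 206, 147 and 163 CPM in white. Its red minus white log2 difference was -2.20 (approximate SE 0.14, edgeR adjusted p = 3.7e-05). A shorter one (810 bases) had 223, 210 and 217 CPM in blue, against 45.5, 44.9 and 47.7 CPM in red and 78.1, 92.6 and 103 CPM in white. Its red minus white log2 difference was -1.30 (approximate SE 0.15, edgeR adjusted p = 0.00078). In both, the 3 lights stood apart in every library.

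**Figure D3:**
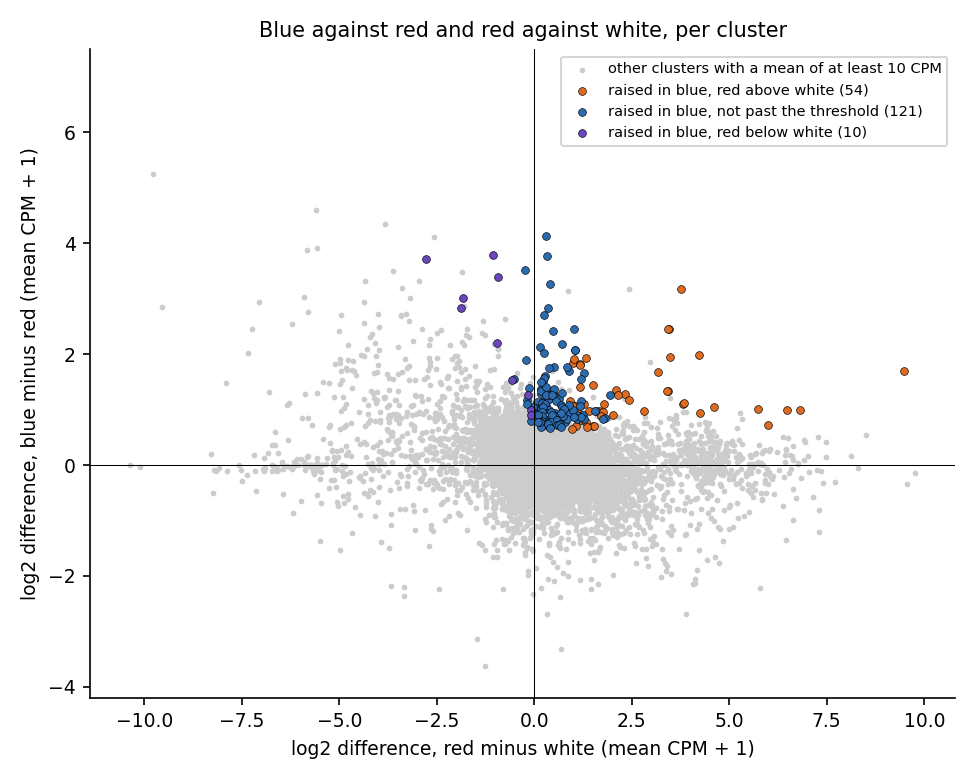
Log2 difference of blue minus red against that of red minus white, from mean CPM + 1, for the 185 clusters raised in blue (coloured by the call in red against white) and the other clusters with a mean of at least 10 CPM (grey). The members lie above 0 on the vertical axis by the rule, and on the horizontal axis most lie right of 0, where 166 (89.7%) have a red mean above the white mean in unscaled CPM, beside 58.8% of all clusters with a mean of at least 10 CPM.

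The fit also gave calls for the comparisons the rule used, listed here as a description. In blue against white 155 of the 185 members were called higher, where 14.1% of all tested clusters and 15.2% of the tested class were. In blue against red 76 members were called higher, where 0.667% of all tested clusters and 1.83% of the tested class were. No member was called lower in either (edgeR), a direction the rule bars. Both comparisons share the blue libraries and the rule fixed their direction. The count in blue against red changed with the libraries in the fit, white ones included, and all 9 libraries share a common estimate of the spread. How far the spread of the white libraries sets this count was not tested. Leaving out white 1, 2 or 3 gave 119, 134 and 41, leaving out red 1, 2 or 3 gave 19, 15 and 26, and leaving out blue 1, 2 or 3 gave 27, 25 and 30. A fit of the blue and red libraries alone called 183 members.

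White libraries spread widely in many members, often in an order that was also frequent in the class. In unscaled CPM, white 1 was above white 3 and white 3 above white 2 in 103 of 185 members, or 55.7%, beside 49.5% of the class. The TMM factors had the same order (0.936 in white 1, 0.827 in white 3 and 0.788 in white 2), so scaling by library totals alone favours it. Of the 171 members with more than 3 counts in white 2, 47 had white 1 at 3 times white 2 or more (27.5%, beside 21.5% of the class), and 46 of these had that order of the 3 white libraries. Of the 47, 4 rose in red over white (8.51%, beside 438 of the 2194 clusters of the class with such a white spread and 17.0% of all tested clusters) and 43 did not pass. The most abundant of the 47 (7103 bases) had 3981, 3658 and 4053 CPM in blue, against 2240, 2024 and 1950 CPM in red and 2135, 172 and 1089 CPM in white. Blue and red libraries were close within each light there, and the white ones spanned a range of more than 10 times. The part of these differences between white libraries in the members' blue to white ratios was not tested.

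In blue, the libraries were about as close to each other as in the class. The median CV was 7.35% in blue, 6.27% in red and 28.2% in white over the members, against 7.65%, 6.93% and 22.9% over the class, where the rule on the lowest blue library favours a small blue spread. In 14 members the blue CV was above 35%. In 6 of these blue 1 was lowest and blue 3 highest, in 2 blue 3 was lowest and blue 1 highest, and in the other 6 blue 2 was lowest. The most abundant with blue 2 lowest (2803 bases) had 1194, 386 and 855 CPM in blue 1 to 3, against 206, 197 and 196 CPM in red and 197, 143 and 161 CPM in white. Another (4169 bases) had 467, 125 and 269 CPM in blue, against 69.9, 67.6 and 65.4 CPM in red and 50.6, 17.6 and 28.4 CPM in white. Blue 2 still exceeded every red and white library in both, as the rule requires, while blue 1 was at least 3 times blue 2. None of the 14 had whole counts in all libraries.

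The members had a median effective length of 1922 bases (quartiles 1163 and 2734), close to the 1859 bases of the class (quartiles 1154 and 2962). Short clusters were more frequent, with 17 members under 400 bases (9.19%) against 3.79% of the class, and 7 members had 5000 bases or more. In 10 of the 17 short members blue 1 was the lowest and blue 3 the highest blue library, against 33 of the 168 longer ones, and in the class this order had shares of 20.1% of the short and 16.9% of the longer clusters. An example ranked 24 by ratio (117 bases) had 45.1, 59.7 and 82.9 CPM in blue 1 to 3, against 16.2, 18.4 and 16.1 CPM in red and 8.90, 6.13 and 5.96 CPM in white. The median blue CV was 23.6% in the short members and 7.05% in the longer ones. None of the 17 had whole counts in all libraries, and 7 of them rose in red over white (41.2%, beside 17.2% of the clusters of the class under 400 bases and 17.0% of all tested clusters). Of the 7 members with 5000 bases or more, 3 had the opposite order, blue 1 highest and blue 3 lowest, among them the 2 longest members, of 13386 and 13394 bases. The part of length, or of a difference between blue libraries in how RNA of different length was recovered, in these values was not tested.

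**Figure D4:**
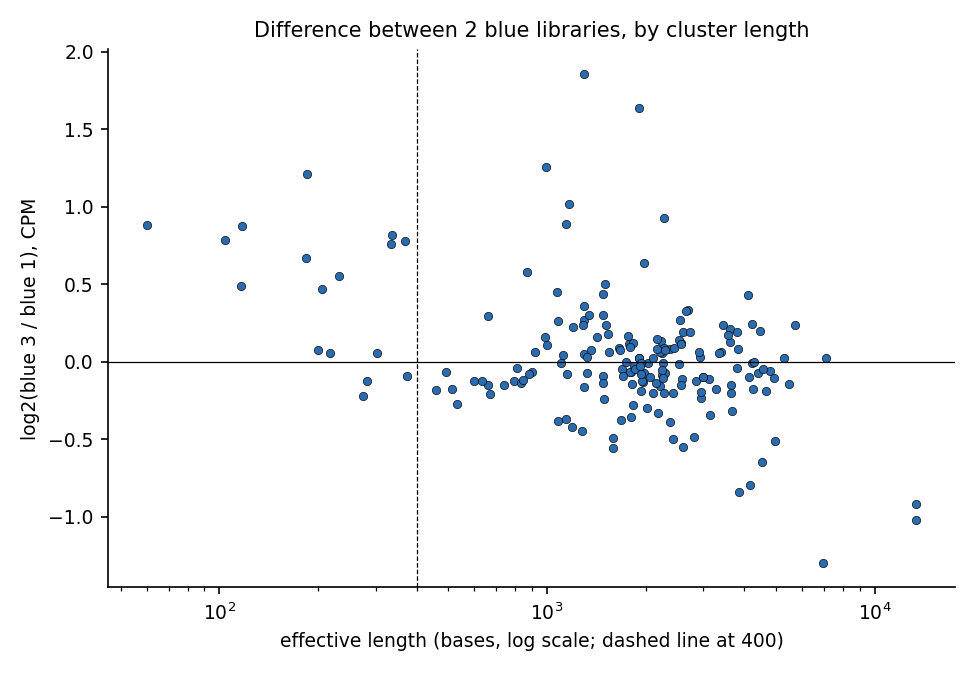
Log2 ratio of blue 3 to blue 1 in CPM against the effective length in bases (log scale) for the 185 clusters, with a dashed line at 400 bases. Of the 17 clusters left of the line 14 lie above 0, and the 2 longest clusters lie below it.

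The count of 185 was set beside those of mirrored rules with the same factor and abundance limit. In this way 158 clusters were lower in blue than in every red and white library. The clusters higher in red than in every blue and white library were 159, and those higher in white than in every blue and red library 561. All these counts are in unscaled CPM, and the mirrored ones are not given for other scalings. These numbers describe the libraries, and no test compares them. All 185 identifiers carry the same first number, as do all 10739 of the class, so it does not distinguish the members. Sequences of the clusters were not used here.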

How the data were processed

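RNA of 9 samples, 3 per light, was extracted with Trizol and made into libraries with the NEBNext Ultra RNA kit, per the labels' protocols. Each sample has 1 table of 115975 clusters with estimated counts, deposited by the authors without scaling (21.6% to 33.9% of values per library are not whole), and with FPKM values deposited by the authors, per the file headers. The submitters' processing notes name DESeq 1.10.1. The aligner, counter and assembly are not given in the sources used here.

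Members were taken from unscaled CPM. Effective length is the median of count per FPKM and library total where a cluster had at least 50 counts. For tests, counts were rounded and all 9 libraries fitted together in edgeR 4.0.16 (R 4.3.3; filterByExpr with at least 10 counts and 15 in total, which left 38376 clusters; TMM; robust glmQLFit; glmQLFTest; light as the only term), with Benjamini-Hochberg adjustment over all tested clusters and 0.05 as the threshold. Approximate SEs are the log2 difference divided by the root of its F statistic. The fit was tried on simulated data for red against white only. The simulation gave each cluster the same spread in all lights, so it does not cover the wider spread of the white libraries. Alternatives included DESeq2 1.42.0, limma-voom (limma 3.58.1), other scalings and filters, a replicate block and each library left out. Quality weights per light were chosen after seeing the data.

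The members and lists were chosen with earlier results of these data known. The naming rule took the member with the largest ratio, the one with the highest blue FPKM, and the 2 with the largest falls in red relative to white among called members without overlap. Other members were described by rank, and those given as extreme or example cases were chosen after their values were seen. Floors cover counting error only, since no molecular identifiers are mentioned in the labels.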

Additional observations from a re-analysis of the deposited data

How the results depend on the processing

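The number of clusters that met the rule was 185. It was 93 with TMM-scaled CPM, 89 with size factors, 178 with FPKM, 560 at a lower ratio, 40 at a ratio of 2, 445 at a mean of 1 CPM, 135 at a mean of 20 CPM and 44 where all counts were whole. Leaving out 1 library gave 193 to 248, since fewer libraries then have to meet it. Without blue 1, 2 or 3, 175, 177 and 173 of the 185 were kept, and the rest fell under the mean of 10 CPM. Of the members, 64 were called in red against white (54 higher, 10 lower). A threshold of 0.01 gave 42 (34 higher). Leaving out 1 library gave 43 to 107 (34 to 85 higher, 8 to 22 lower), most without white 1. Other settings gave 48 to 80, and no called member changed sign in any setting. The 155 members called in blue against white were 113 to 179 over all settings, 122 to 176 of these with 1 library left out. The 76 called in blue against red were 27 with the replicate number as a block, 183 in a fit of the lights compared, 134 with DESeq2, 167 with quality weights per light, 22 at a threshold of 0.01 and, leaving out 1 library, 15 to 134. The replicate block gave 60 calls for red to white and 151 for blue to white. Same-numbered samples of different lights correlated at 0.0053 to 0.066 in their deviations from the group means. Differently numbered ones correlated at -0.066 to 0.040. All these correlations were small, though positive in every same-numbered pair. The main fit did not take the numbers to pair the samples, which small correlations alone cannot decide. The counts with the replicate block, given above, are those with such a pairing. Of the named clusters none reversed, and Cluster-15686.47793 lost its red to white call in 4 of 18 alternatives. Otherwise the cause was not tested. Depth limits the low side most, since a count of 0 allows up to 3 counts in a library.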
